A study of Mus musculus with 6 samples.

Results

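Amino acid transporter genes were examined in mouse bone marrow-derived macrophages (BMDMs) of 2 Foxo1 genotypes and 3 polarization states. Members were chosen by name alone: every gene on the array whose symbol starts with Slc1a, Slc3a, Slc6a, Slc7a, Slc36a, Slc38a or Slc43a, with Slc7a1, Slc7a2 and Slc7a11 left out. Of 27361 gene names on the array 59 matched, and 44 of these belong to the 19044 genes that could be tested, which means that the brightest probe of the gene carried the scanner's flag for a signal well above background on at least 2 of the 6 arrays. The flag was set on all 6 arrays for 33 of the 44. Slc6a3 passed only through the M2 arrays. The 15 genes that were not tested are Slc1a1, Slc1a3, Slc1a7, Slc3a1, Slc6a2, Slc6a5, Slc6a15, Slc6a18, Slc6a20a, Slc6a20b, Slc7a10, Slc7a12, Slc7a13, Slc38a5 and Slc38a11. A few names that match carry other cargo or none. Slc6a3 and Slc6a4 take up monoamines, Slc6a8 takes up creatine, Slc43a3 is known as a nucleobase carrier, and Slc7a6os is a gene on the strand opposite Slc7a6 that encodes no transporter.

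Control macrophages (WT) carried FoxO1 Fl/Fl, a floxed gene without a recombinase, and knockout macrophages (KO) were LysMcre FoxO1 Fl/Fl, in which Cre is made from the lysozyme M gene of myeloid cells. All were of the C57BL/6 strain. Because Cre is present in KO cells only, loss of FoxO1 and presence of Cre cannot be told apart. Marrow was cultured for 7 days with 10% L929 medium. Cells were then left unstimulated (M0), exposed to 100 ng/ml lipopolysaccharide (LPS) and 20 ng/ml interferon-gamma (M1), or exposed to 10 ng/ml each of the interleukins IL-4 and IL-13 (M2), for 24 hours. Each combination of genotype and state was hybridised to 1 array, and nothing says that the 6 RNA samples came from separate animals. The p-values and standard errors (SE) below therefore measure only how far these arrays depart from an additive model of state and genotype. A response that differs between the genotypes, or a difference between slides, can enter that spread. The WT M0 and WT M1 arrays share slide 1, and the WT M2 array shares slide 2 with the 3 KO arrays. M1 can therefore be set against M0 within a slide in both genotypes, M2 against M0 only in KO, and KO against WT only in M2.

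Amino acid transporters move amino acids across the plasma membrane and the lysosomal membrane, by exchange, by facilitated passage or by coupling to sodium or protons. The heavy chain CD98, encoded by Slc3a2, pairs with light chains of the Slc7 family and brings them to the cell surface. In macrophages these carriers feed arginine, glutamine, tryptophan and branched-chain amino acids into effector metabolism and into the mTORC1 pathway, which senses amino acids at the lysosome.

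Levels are log2 processed signals relative to the 75th percentile of each array, which was 532 to 628 intensity units. A level describes 1 probe and is not compared between genes. Foxo1 itself was lower in KO in every state. Its KO minus WT values were -2.92 for M0, -2.78 for M1 and -2.66 for M2, and a further Foxo1 probe gave -2.90 to -2.80. Macrophage markers were well above background on 10 or 11 of 11 on every array, with median levels of 4.10 to 5.83. Liver markers stood out on WT M0, where all 16 were well above background at a median of -0.75, and to a lesser degree on KO M1, with 12 of 16 at a median of -4.52. On the other 4 arrays 4 to 7 of 16 were, at medians of -8.02 to -6.24. Median KO minus WT differences of 11 neutrophil markers were -2.64, -0.52 and -1.84 in the order M0, M1, M2, with 11, 6 and 10 of them below 0, and those of 10 stromal markers were -1.41, -0.63 and -1.10, with 10, 9 and 9 below 0. Fewer cells of a type and less RNA per cell cannot be told apart in such bulk samples.

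The comparison of M1 with M0 asks how transport genes respond to LPS and interferon-gamma. The apical neutral amino acid carrier gene Slc6a19 rose by 6.57 on the log2 scale, the heavy chain gene Slc3a2 by 1.40 and the light chain gene Slc7a8 by 1.79, while the glutamine exchanger gene Slc1a5 fell by 1.73 and Slc7a4 was no longer above background. In limma, with an additive model of state and genotype, 8 of the 44 members rose and 3 fell at an adjusted p under 0.05. Over all tested genes 11.6% rose and 14% fell, so the 11 called members (25%) lie at the background of 25.6%. The members that rose were Slc1a4, Slc3a2, Slc6a13, Slc6a19, Slc7a3, Slc7a8, Slc36a3 and Slc43a3, and those that fell were Slc1a5, Slc7a4 and Slc43a2. Slc7a4 was tested only through its M0 and M2 values, so its fall is a description. At least 2-fold higher in both genotypes were 8 members (18.2%, against 8.97% of all genes), and 3 were at least 2-fold lower (6.82%, against 11.2%). The adjusted p of the called members ran from 0.00678 to 0.0269. The median difference of the members was 0.31, against 0.03 over all genes. Among the 33 members above background on every array 7 rose and 2 fell, where 12.1% and 13.3% of such genes did. M1 and M0 differed in the same direction in both genotypes for 32 of 44 members (72.7%), against 82.1% of all genes.

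Calls in this comparison rest on all 4 M0 and M1 arrays: without any one of them 0 of 19044 genes passed. Scaling to the array median in place of the 75th percentile moved the median of all genes from 0.03 to 0.26 and called 12 members higher and 2 lower. With normexp background correction, which adds an offset of 50 units, 4 members passed, namely Slc1a5, Slc3a2, Slc6a19 and Slc7a8. The part of the offset in this was not tested.

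**Figure D1:**
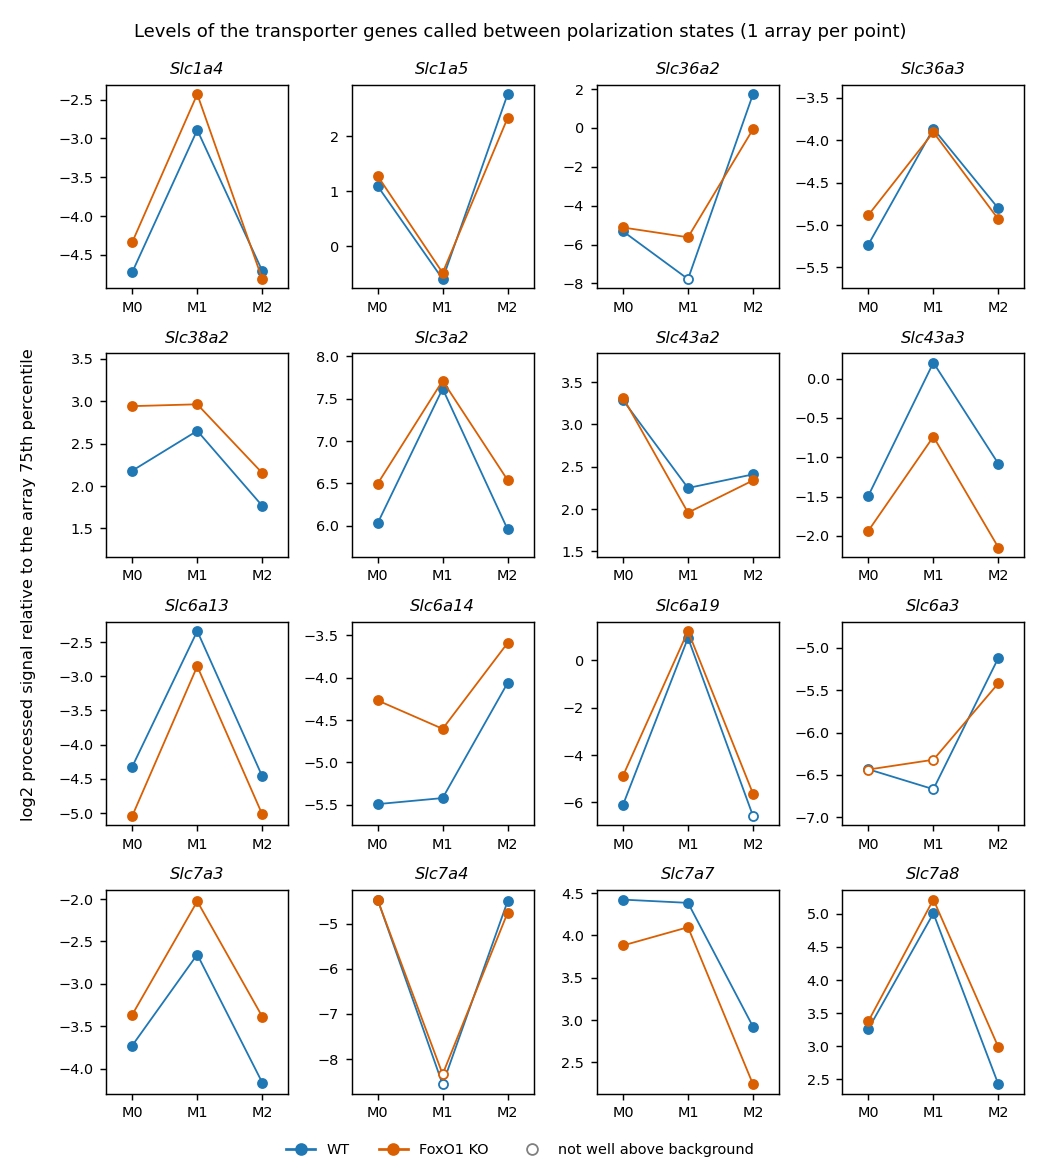
Level of each of the 16 members called in at least 1 comparison of states, by state, with WT in blue and FoxO1 KO in orange and 1 array per point. The vertical axes show log2 processed signal relative to the array's 75th percentile, each on its own scale, and open points mark arrays where the probe was not well above background. Slc6a19 peaked in M1 at 0.94 and 1.23, and Slc36a2 peaked in M2 at 1.74 and -0.06.

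The heavy chain gene Slc3a2 had levels of 6.03, 7.62 and 5.96 in WT and 6.50, 7.71 and 6.54 in KO, in the order M0, M1, M2. Both M1 arrays lay above all 4 others, and M0 and M2 differed little. M1 exceeded M0 by 1.40 ± 0.20 (SE; adjusted p = 0.0196) and M2 by 1.42 ± 0.20 (adjusted p = 0.0182). Each call was kept by 8 of 10 alternative settings, and lost with quantile normalization and with the authors' log2 table. A further Slc3a2 probe gave 1.53 and 1.42 for the same differences. The other heavy chain gene, Slc3a1, known from apical epithelia, carried the flag for signal above background on none of the 6 arrays.

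Among the light chains, Slc7a8 encodes LAT2, an exchanger of large and small neutral amino acids. Its levels were 3.26, 5.01 and 2.42 in WT and 3.38, 5.22 and 2.98 in KO, so M1 stood above M0 and M0 above M2 in both genotypes. The rise from M0 to M1 was 1.79 ± 0.19 (SE; adjusted p = 0.0124), and M1 exceeded M2 by 2.41 ± 0.19 (adjusted p = 0.00754). Slc7a7 encodes y+LAT1, which exports cationic amino acids in exchange for neutral ones and sodium. It read 4.42, 4.38 and 2.92 in WT and 3.88, 4.10 and 2.24 in KO. Both M2 arrays were thus the lowest, and M0 and M1 overlapped. M1 exceeded M2 by 1.66 ± 0.18 (adjusted p = 0.0116), and the mean of M2 minus M0 was -1.57 ± 0.18, which missed the threshold (adjusted p = 0.077).

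Slc7a5, which encodes LAT1, the carrier of leucine and other large neutral amino acids into activated cells, lies outside the rule for named genes and is given because of that role, after its values were seen. It read -3.05, -2.71 and -3.30 in WT and -3.00, -2.27 and -3.08 in KO. M1 was the highest state in both genotypes, but the difference of 0.54 ± 0.18 from M0 did not pass (adjusted p = 0.108). Of 10 alternative settings 2 called it, quantile normalization and the authors' log2 table, and with normexp correction it was -0.15. Slc7a9, which encodes the light chain that pairs with Slc3a1, is described with the genotypes below.

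Slc7a3 encodes CAT3, a carrier of arginine and lysine. It rose from -3.73 to -2.65 in WT and from -3.36 to -2.03 in KO, a mean of 1.21 ± 0.18 (SE; adjusted p = 0.0223). Both M1 arrays were above the 4 others. Slc7a4, a relative of the cationic carriers without established cargo, fell. It read -4.47 and -4.48 in M0 and -4.50 and -4.76 in M2, and on both M1 arrays it was not well above background (-8.56 and -8.33). Against the lowest signal flagged above background on those arrays it was at least 3.21-fold lower in M1 than in M0 and at least 2.88-fold lower than in M2. The adjusted p in limma, 0.00678 against M0 and 0.00547 against M2, comes from the unflagged M1 values and not from these bounds. As the M0 and M2 arrays alone brought Slc7a4 into the tested set, both differences are descriptions, although they are counted among the calls. Signals of Slc7a4 were 24 to 27 units in M0, close to the floor. With normexp correction the M1 minus M0 difference was 0.13 for Slc7a3 and -1.16 for Slc7a4, with neither called. The designed probe of Slc7a4, at chr16:17573432-17573491 (mm9, minus strand), is shown because both results rest on it alone. The files do not place probes in exons.

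Slc7a4 probe: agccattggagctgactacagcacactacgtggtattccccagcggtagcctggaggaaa

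Members of the Slc43 family, facilitated carriers that need no heavy chain, moved in opposite directions. Slc43a2, which encodes LAT4, a carrier of branched-chain amino acids, phenylalanine and methionine, read 3.29, 2.25 and 2.41 in WT and 3.32, 1.96 and 2.34 in KO. Both M0 arrays lay above all M1 and M2 arrays. M1 minus M0 was -1.20 ± 0.17 (SE; adjusted p = 0.0199), whereas M2 minus M0 was -0.93 without a call (adjusted p = 0.127). A further Slc43a2 probe gave -1.43 and -1.17. Slc43a3 read -1.49, 0.20 and -1.08 in WT and -1.93, -0.74 and -2.15 in KO. It was highest in M1 within each genotype, by 1.44 ± 0.22 over M0 (adjusted p = 0.0232) and 1.35 ± 0.22 over M2 (adjusted p = 0.0258).

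In the Slc1 family the neutral exchangers ASCT1 and ASCT2, encoded by Slc1a4 and Slc1a5, parted. Slc1a5 is the main sodium-dependent glutamine entry route of many proliferating cells. Its levels were 1.10, -0.60 and 2.77 in WT and 1.28, -0.48 and 2.34 in KO. The states did not overlap: M2 was highest, M0 intermediate and M1 lowest in both genotypes. M1 minus M0 was -1.73 ± 0.23 (SE; adjusted p = 0.0174) and M1 minus M2 was -3.09 ± 0.23 (adjusted p = 0.00696). M2 exceeded M0 by 1.36 ± 0.23, which did not pass (adjusted p = 0.115).

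Slc1a4, which carries alanine, serine, cysteine and threonine, read -4.72, -2.89 and -4.71 in WT and -4.34, -2.43 and -4.81 in KO. Both M1 arrays stood above the 4 others, by 1.87 ± 0.22 over M0 (adjusted p = 0.0141) and 2.10 ± 0.22 over M2 (adjusted p = 0.011). Another Slc1a4 probe gave M1 minus M0 values of 0.41 in WT and 1.71 in KO. The probe with the highest mean had only 20 and 30 units in M0 and 79 and 108 in M1, and with normexp correction its difference was 0.09. The glutamate carrier gene Slc1a3 was well above background on WT M0 alone, at -4.96, against -8.63 to -6.34 elsewhere. That array also carried the liver markers, and their part in this value was not tested.

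The Slc38 family holds sodium-coupled neutral amino acid carriers. Of 8 tested members 0 passed between M1 and M0, with differences from -0.61 to 0.63, and 1 passed between M1 and M2. Slc38a2, which encodes SNAT2, the system A carrier that cells induce when amino acids run short, read 2.18, 2.65 and 1.77 in WT and 2.94, 2.96 and 2.15 in KO. M2 was the lowest state in each genotype, and M1 exceeded M2 by 0.85 ± 0.19 (SE; adjusted p = 0.0493). The call was at the threshold and 4 of 10 alternative settings kept it. The other 3 Slc38a2 probes differed the same way, by 0.69 to 1.26.

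Slc38a9 encodes a lysosomal carrier that reports arginine to mTORC1. It read 1.73, 2.37 and 2.78 in WT and 1.59, 2.22 and 2.61 in KO, so M2 was highest and M0 lowest in both genotypes. M2 exceeded M0 by 1.05 in WT and 1.02 in KO, a mean of 1.04 ± 0.15 that missed the threshold (adjusted p = 0.102). For M1 against M0 the mean was 0.63 ± 0.15 (adjusted p = 0.052). Its 4 probes did not agree on M1. The brightest and the one from 113524569 gave 0.63 and 0.61, the one from 113523042 gave -0.28, and the one from 113498076, the only one of the 4 designed on another transcript record, gave -0.87. All 4, on chromosome 13 of mm9, gave higher values in M2 than in M0, from 0.78 to 1.21.

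Proton-coupled carriers are the Slc36 family, which take up glycine, proline and alanine. Slc36a2, which encodes PAT2, had signals of 13 and 17 units in M0 and 1841 (WT) and 601 (KO) units in M2. In levels it read -5.32, -7.78 and 1.74 in WT and -5.12, -5.63 and -0.06 in KO, where the WT M1 value was not well above background. Both M2 arrays stood above the 4 others. M2 exceeded M0 by 7.06 in WT and 5.06 in KO, a mean of 6.06 ± 1.01 (SE) that did not pass (adjusted p = 0.115). M1 minus M2 was -7.54 ± 1.01 (adjusted p = 0.0174), a call that the normexp setting ended (adjusted p = 0.0565). Because the WT M1 array gives only a bound, M2 was at least 254-fold over M1 in WT, against a measured 47.3-fold in KO. Another Slc36a2 probe was above background on WT M2 only, at -4.36. The probe that carries the result lies at chr11:54972134-54972193 (mm9, minus strand).

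Slc36a2 probe: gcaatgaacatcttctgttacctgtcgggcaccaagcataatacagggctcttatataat

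Slc36a3, which encodes a related protein of unsettled function, rose by 1.17 ± 0.20 from M0 to M1 (SE; adjusted p = 0.0269), with signals of 14 and 20 units in M0 and 40 and 39 units in M1. Its 3 probes gave 1.09 to 1.36. With normexp correction the brightest gave -0.33, so the direction of this dim gene depended on the background treatment. Slc36a1 and Slc36a4 were not called, with M1 minus M0 values of -0.12 to 0.23 over both genotypes.

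**Figure D2:**
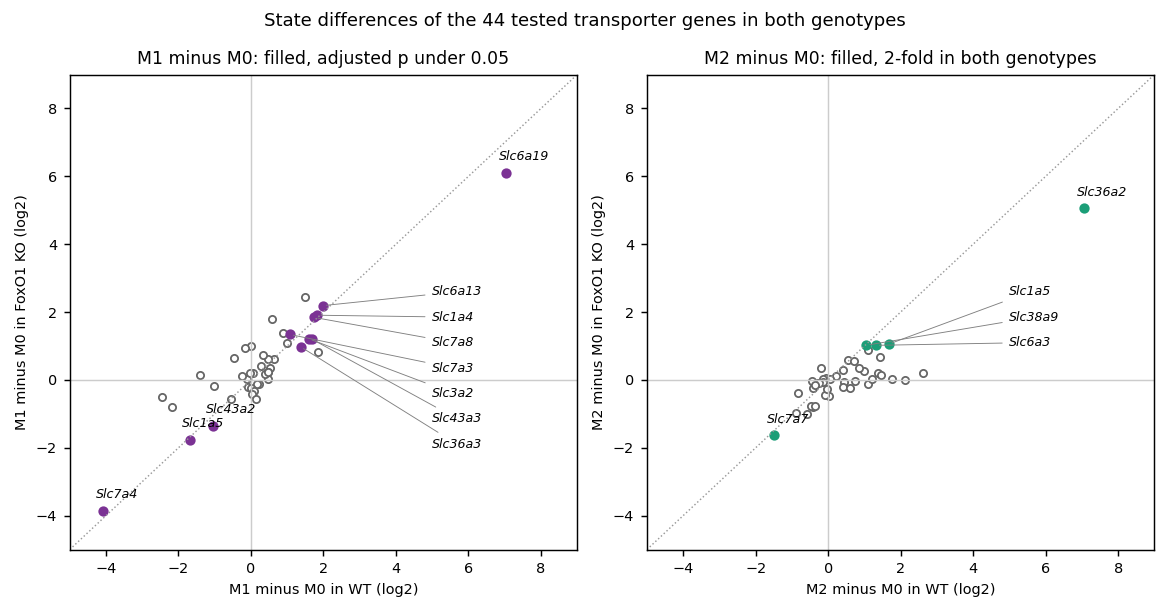
Differences of the 44 tested members between states, with the WT value on the horizontal and the KO value on the vertical axis, both in log2 units, for M1 minus M0 (left) and M2 minus M0 (right). Filled points are members called in M1 against M0 (left) or at least 2-fold apart by measured values in both genotypes (right), and the dotted line marks equal values. Slc6a19, at 7.04 and 6.10, and Slc36a2, at 7.06 and 5.06, lie farthest from the origin.

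The Slc6 family holds sodium- and chloride-coupled carriers. Slc6a19 encodes B0AT1, known for the uptake of neutral amino acids in intestine and kidney. Its signals were 8 and 20 units in M0, 1127 and 1359 units in M1, and 6 and 13 units in M2, WT first. The levels were -6.10, 0.94 and -6.57 in WT, the last not well above background, and -4.87, 1.23 and -5.63 in KO. M1 exceeded M0 by 6.57 ± 0.29 (SE; adjusted p = 0.00678) and M2 by 7.18 ± 0.29 (adjusted p = 0.00506), and both M1 arrays stood far above the others. Of the M2 arrays only KO measured the gene, where M1 was 116-fold over M2, and in WT it was at least 138-fold over it. Of 6 kidney tubule markers 1 was well above background on each M1 array and 1 to 3 on the others. With normexp correction the rise was 3.37 and remained called.

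The 250 bases before the Slc6a19 start (RefSeq, GRCm38.p6, chr13:73692637-73692886, minus strand) are printed because this gene had the largest mean rise of the members in M1. Capitals mark the one match to any of 5 motifs searched on both strands. These were TGATGNAA (the C/EBP-ATF composite), the STAT6 palindrome (TTC and GAA with any 4 bases between), TTCNNNGAA (the GAS palindrome), the interferon-stimulated element (GAAA, any 2 bases, GAAA) and the NF-kB site. The match, TTCATTAGAA, begins 199 bases before the start and has the STAT6 spacing, which 5.85% of 32851 windows of this length hold.

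Slc6a19 upstream window: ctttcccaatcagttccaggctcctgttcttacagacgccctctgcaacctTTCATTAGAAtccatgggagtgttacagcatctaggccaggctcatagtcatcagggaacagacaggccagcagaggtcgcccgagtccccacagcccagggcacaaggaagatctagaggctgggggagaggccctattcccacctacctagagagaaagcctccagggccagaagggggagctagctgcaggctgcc

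Over 51 such windows of 32 tested members that matched, 2 held the C/EBP-ATF composite (3.92%, against 3.45% of all windows), 2 the STAT6 palindrome (3.92% against 5.85%) and 1 the GAS palindrome (1.96% against 7.02%). None held the interferon-stimulated element, against 2.98%, and 6 held the NF-kB site (11.8% against 3.9%). Windows of one gene can overlap and so share a match, as for Slc7a7. A match is a run of letters and says nothing of binding.

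Slc6a13 encodes GAT2, a carrier of GABA and taurine. It read -4.32, -2.34 and -4.46 in WT and -5.04, -2.85 and -5.02 in KO. Both M1 arrays lay above the rest, by 2.09 ± 0.16 over M0 (SE; adjusted p = 0.00859) and 2.15 ± 0.16 over M2 (adjusted p = 0.00698). A further Slc6a13 probe, from 121287597 on chromosome 6 (mm9), overlaps the brightest, from 121287577, and so is not an independent check. That probe gave 2.31 for M1 minus M0 in WT, and in KO, where it was not well above background in M0, M1 was at least 12.4-fold higher. Signals reached 116 and 80 units in M1 and 27 and 18 units in M0, and with normexp correction the rise was 0.20 without a call.

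Among the Slc6 genes lower in M1 than in M2, Slc6a14 encodes a broad carrier of neutral and cationic amino acids. It read -5.49, -5.42 and -4.06 in WT and -4.27, -4.60 and -3.59 in KO. M1 minus M2 was -1.19 ± 0.24 (SE; adjusted p = 0.0398), a call that 1 of 10 alternative settings kept. Another Slc6a14 probe was well above background on 0 arrays. The dopamine carrier gene Slc6a3 was above background on the M2 arrays alone, at -5.12 and -5.42, at least 2.09-fold over M0 and at least 1.85-fold over M1. As those arrays alone brought it into the tested set, its lower value in M1 is a description, although it is counted among the calls. Of the bright Slc6 members, the taurine carrier gene Slc6a6 read 5.60, 5.04 and 5.23 in WT and 5.70, 5.15 and 4.94 in KO. Both M0 arrays lay above all M1 and M2 arrays. M1 minus M0 was -0.56 and M2 minus M0 was -0.57, neither called in limma (adjusted p = 0.11 and 0.244). Quantile normalization, the authors' log2 table and a variance prior that follows intensity each called the fall in M1. A further Slc6a6 probe gave -0.44 and -0.63. The creatine carrier gene Slc6a8 read 4.24 to 5.01 over the 6 arrays.

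The comparison of M2 with M0, which concerns IL-4 and IL-13, called 0 of 44 members in limma, where 0.0998% of all genes passed (0.0788% higher, 0.021% lower; among genes above background on all 6 arrays 0.0441% and 0.0126%). At an unadjusted p under 0.05 there were 11 members (25%), against 19.1% of all genes. With a variance prior that follows intensity 6 members passed, Slc1a5, Slc6a9, Slc36a2 and Slc38a9 higher and Slc7a7 and Slc43a2 lower. By measured values Slc1a5, Slc36a2, Slc38a9 and Slc6a3 were at least 2-fold higher in both genotypes (9.09%, against 3.26% of all genes). For Slc6a3, not well above background in M0, the bound was 2.28-fold in WT and 1.92-fold in KO, so it does not reach 2-fold in KO. By the same measure Slc7a7 alone was at least 2-fold lower (2.27%, against 3.27%). Only the KO pair of this comparison shares a slide. There the differences were 1.06 for Slc1a5, 5.06 for Slc36a2, 1.02 for Slc38a9 and -1.64 for Slc7a7.

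Set directly against each other, M1 and M2 differed for 15 of 44 members (34.1%), against 25.3% of all genes. Higher in M1 were 10 members (11.7% of all genes were), the 8 that rose over M0 and also Slc38a2 and Slc7a7. Lower in M1 were 5 (13.6% of all genes were), Slc1a5, Slc6a14, Slc7a4, Slc36a2 and Slc6a3, the last tested only because its M2 values were high. Slc7a4 was likewise tested only through its M0 and M2 values. By fold, 8 members were at least 2-fold higher in M1 in both genotypes (18.2%, against 8.45% of all genes) and 4 at least 2-fold lower (9.09%, against 10.3%). Among the 33 members above background on every array 9 were called higher and 2 lower, where 12.4% and 13% of such genes were. The genotypes went opposite ways by at least 1.5-fold each for Slc38a8 and Slc6a16 (4.55%, against 3.92% of all genes). No member did so between M1 and M0 (1.41% of genes) or between M2 and M0 (1.84%). This comparison and the one with M0 share the M1 arrays. With the slide as a block, which leaves the WT M2 array without a say, 8 members passed. Those were Slc1a4, Slc6a13, Slc6a19, Slc7a7 and Slc7a8 higher and Slc1a5, Slc7a4 and Slc36a2 lower. The same 8 passed without the WT M2 array. Without either M1 array 0 of 19044 genes passed, and without either M0 array 5 members did, namely Slc1a5, Slc6a13, Slc6a19, Slc7a4 and Slc7a8. Array-median scaling called 14 higher and 4 lower, and normexp correction 4 higher and 1 lower.

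The comparison of KO with WT asks whether FoxO1 affects these genes. In limma 0 of 44 members and 0 of 19044 genes passed (0% called). The lowest adjusted p was 0.372 among the members and 0.304 overall. With a variance prior that follows intensity 35 genes passed, with 0 members among them. In the main fit Foxo1 itself was not called, although its KO minus WT values were -2.92, -2.78 and -2.66. The lack of calls therefore does not show a lack of effect. At an unadjusted p under 0.05 there were 10 members (22.7%), against 11.3% of all genes. Of these Slc6a8, Slc6a9, Slc6a14, Slc6a19, Slc7a3, Slc7a6os and Slc38a2 had higher and Slc6a13, Slc7a7 and Slc43a3 lower values in KO. KO exceeded WT in every state for 12 members (27.3%, against 22.1% of all genes) and was below WT in every state for 5 (11.4%, against 15.1%). The 5 were Slc6a13, Slc7a7, Slc36a1, Slc38a9 and Slc43a3. No member was 2-fold apart in one direction in all 3 states, where 0.688% of genes were.

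For Slc43a3 the values of KO minus WT were -0.45 (M0), -0.94 (M1) and -1.06 (M2), and the fitted mean was -0.82 ± 0.18 (SE; adjusted p = 0.374). Slc7a7 differed by -0.54, -0.29 and -0.68, and Slc6a13 by -0.72, -0.51 and -0.56. Slc3a2 differed by 0.47, 0.09 and 0.58 and Slc6a8 by 0.62, 0.17 and 0.70, both smallest in M1. None of these genes passed the test of KO against WT.

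Within single states, where 1 array is set against 1 array with no test, 5 of 38 members were at least 2-fold higher in KO in M0 (13.2%, against 5.76% of genes above background on both arrays) and 0 lower (3.6% of genes). They were Slc6a11, Slc6a14, Slc6a19, Slc7a9 and Slc7a15. In M1 there were 7 of 38 higher (18.4%, against 9.31%) and 0 lower (1.02%), among them Slc1a2, Slc6a11, Slc6a16, Slc7a9, Slc7a15 and Slc38a8. In M2, the pair that shares a slide, 0 of 41 were higher (2.33%) and 3 were lower (7.32%, against 3.89%), Slc36a2, Slc38a8 and Slc43a3. None of the members 2-fold higher in the M0 or M1 pair was 2-fold higher in the M2 pair.

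**Figure D3:**
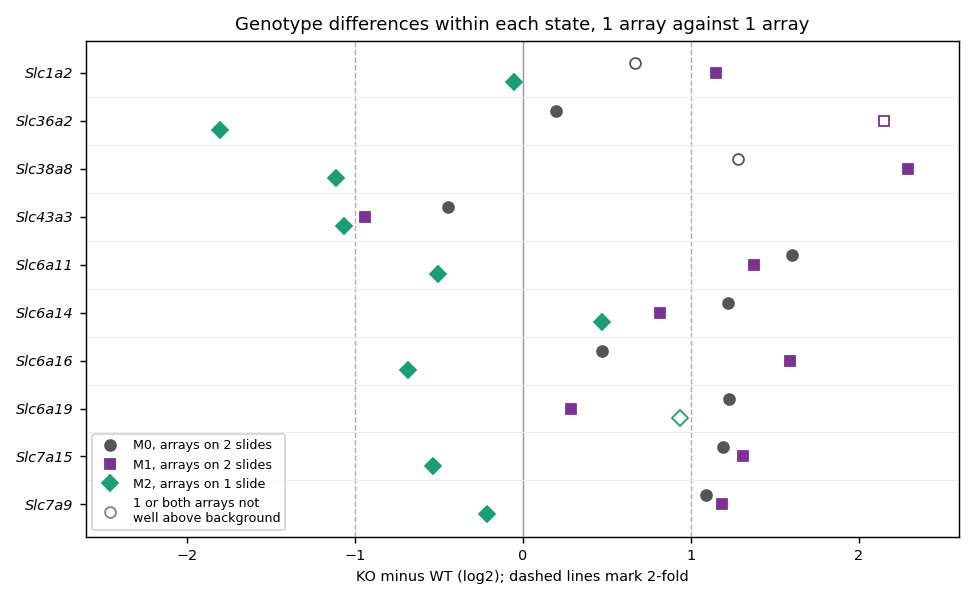
KO minus WT in log2 units for 10 members at least 2-fold apart in at least 1 state with both arrays above background, with grey circles for M0, purple squares for M1 and green diamonds for M2. Open symbols mark pairs with an array not well above background, and dashed lines mark 2-fold. In M0 and M1, across slides, values reach 1.60 and 2.30, while the M2 values, within 1 slide, run from -1.80 to 0.94.

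The KO and WT arrays of M0 and of M1 lie on different slides. For 13 of 44 members (29.5%, against 18.8% of all genes) all 4 slide 2 arrays lay above both slide 1 arrays, and for Slc7a7 and Slc36a1 (4.55%, against 2.76%) they lay below. Slc6a11, Slc6a14, Slc6a16, Slc7a9, Slc7a15 and Slc38a8 are among the 13, and Slc1a2 and Slc6a19 are not. Of these 13, 12 had a mean level under 0, and of all 29 members with such a level 41.4% were split this way, against 26.8% of all genes. Of 15 members with a mean level of 0 or more 1 was (6.67%, against 7.06%). The probes of the 13 and those of the other members had the same median of 45.0% G and C and the same range of 35.0% to 55.0%. A difference in base composition was not tested.

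Slc6a11, which encodes the GABA carrier GAT3, is an example. It read -5.10 and -4.64 on the slide 1 arrays WT M0 and WT M1, and -2.98 (WT M2), -3.50, -3.27 and -3.49 (KO) on slide 2. KO exceeded WT by 1.60 in M0 and 1.38 in M1 and was 0.50 below it in M2. Slc7a15, which encodes a further member of the light chain family, behaved alike, with 1.19, 1.31 and -0.53, and Slc7a9 gave 1.09, 1.19 and -0.21. These values come from the brightest probe of each gene. Another Slc6a11 probe and another Slc7a15 probe were well above background on 0 arrays. Slc38a8, a glutamine carrier gene, read -6.02 and -6.04 on slide 1, the first not well above background, and -3.41, -4.74, -3.74 and -4.52 on slide 2. The probes that carry these values are shown, at chr6:114084610-114084669 (plus strand), chr7:36248629-36248688 (plus strand) and chr8:122009899-122009958 (minus strand) of mm9. How far slide and genotype each contribute was not tested for M0 and M1 and cannot be told apart there.

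Slc6a11 probe: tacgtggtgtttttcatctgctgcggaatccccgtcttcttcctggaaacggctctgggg
Slc7a9 probe: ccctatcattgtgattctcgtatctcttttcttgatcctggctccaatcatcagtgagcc
Slc38a8 probe: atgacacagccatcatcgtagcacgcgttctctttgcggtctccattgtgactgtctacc

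Single arrays also stood out. Slc36a2 was at least 2-fold brighter on WT M2 than on every other array, and Slc1a2 was so on KO M1, which also carried liver markers. Its KO minus WT difference in M1 was 1.15. The part of the liver transcripts in it was not tested. Slc1a2 encodes the glutamate carrier GLT-1 and had 14 units on WT M1 and 31 on KO M1. Counted over the 44 tested members, 2 stood out in this way on KO M1 (4.55%, against 1.03% of all genes), 1 on WT M2 (2.27%, against 1.05%) and 0 on WT M0 (1.54% of all genes).

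For several genes the state difference depended on the probe. Slc7a6, which encodes y+LAT2, gave -0.21 for M1 minus M0 with the brightest probe, from 108721147 on chromosome 8 (mm9), and -1.61 with another from 108722470. Slc7a14, which encodes a lysosomal relative of the cationic carriers, gave 0.12 with the brighter probe, and with a probe that was not above background in M0 it was at least 2.26-fold higher in M1, over both genotypes. Slc38a4 gave -0.61 with the brightest probe, which was not well above background on WT M0 or WT M1. Another Slc38a4 probe, above background on 2 arrays, gave -0.43 in WT and 2.16 in KO, a mean of 0.87. Its KO values of -8.65 (M0) and -6.49 (M1) lay under the lowest flagged signals there (-6.36 and -6.06). The direction of Slc38a4 can therefore not be read. Slc7a6, Slc7a14 and Slc38a4 were picked after their values were seen. In contrast all probes above background of Slc1a4, Slc3a2, Slc6a13, Slc36a3 and Slc43a2 gave the direction of their call. Those of Slc6a13 overlap each other. The other members called in M1 against M0 had a single probe each, so their probes could not be compared. They were Slc1a5, Slc6a19, Slc7a3, Slc7a4, Slc7a8 and Slc43a3.

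**Figure D4:**
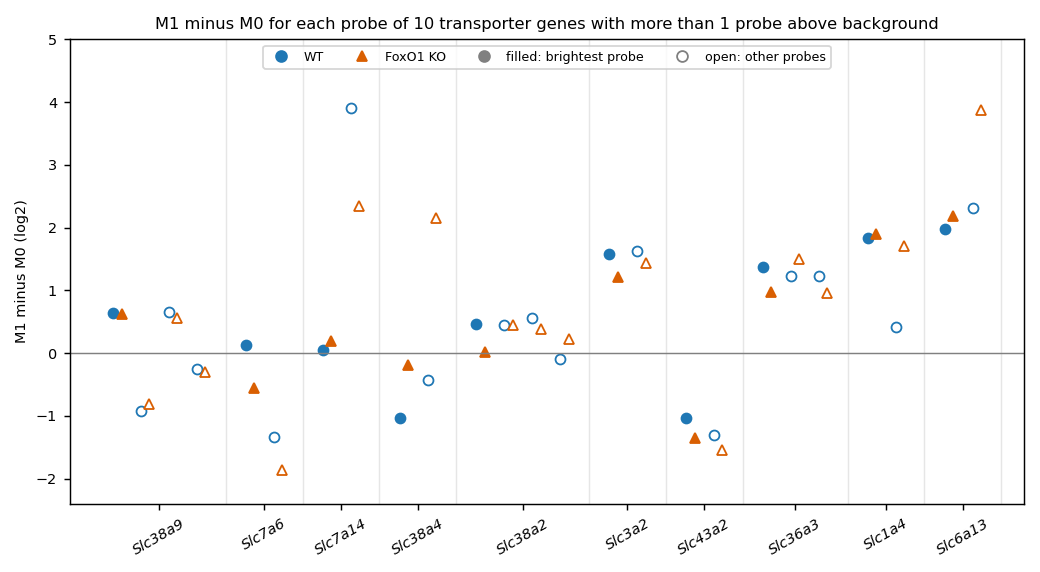
M1 minus M0 in log2 units for each probe above background on at least 2 arrays, for 10 members with more than 1 such probe, with WT as blue circles and KO as orange triangles. Filled symbols mark the brightest probe. Probes of Slc38a9 range from -0.92 to 0.66 in WT, whereas both Slc43a2 probes lie below 0 and both Slc3a2 probes above it.

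Other genes of amino acid handling were followed through lists. The 3 carriers left out of the name rule all rose in M1: Slc7a2, the main inducible arginine carrier of macrophages, by 6.28, the cystine carrier gene Slc7a11 by 3.06 and Slc7a1 by 1.49. Slc7a2 was also higher in M2 than in M0, by 5.55 ± 0.25 (SE; adjusted p = 0.045). Of 19 tested other amino acid carriers 5 rose and 4 fell in M1. The mitochondrial glutamate carrier gene Slc25a22 rose by 2.18, the lysosomal peptide and histidine carrier gene Slc15a3 by 2.15 and the aspartate-glutamate carrier gene Slc25a12 by 2.03 and the mitochondrial glycine carrier gene Slc25a38 by 1.54. Those that fell were Slc17a5, Slc25a2, Slc25a13 and the lysosomal cystine exporter gene Ctns, with differences of -1.38 to -0.97.

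Of 25 tested genes listed for the amino acid response, which the factor ATF4 drives when amino acids are scarce, 10 rose and 4 fell in M1, with a median of 1.26. The list is not confined to genes that ATF4 drives, as it also holds the kinase genes Eif2ak3 and Eif2ak4. Nupr1 rose by 4.72, Trib3 by 3.37, the mitochondrial folate enzyme gene Mthfd2 by 2.59 and Ddit3 by 1.90. The 4 that fell were Vldlr, Eif2ak3 and the serine pathway genes Phgdh and Shmt2, with differences of -1.88 to -0.76. Among 20 aminoacyl-tRNA synthetase genes 4 rose, with Wars at 2.27 and Aars at 1.75, and Dars fell by 0.85. Of 29 genes that signal amino acids to mTORC1, Lamtor5 rose by 0.71 and 3 fell, with Sesn1 at -3.81, Rragd at -1.51 and Flcn at -0.74.

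Of 33 amino acid enzyme genes 8 rose and 9 fell. Nos2, the inducible nitric oxide synthase gene, was well above background on the M1 arrays only, at 3.37 and 2.85. The argininosuccinate synthase gene Ass1 rose by 4.86 and the arginase gene Arg1 by 4.81, while the glutamine synthetase gene Glul fell by 3.48 and the proline oxidase gene Prodh by 2.69. Called shares of these lists stand beside 11.6% of all genes that rose and 14% that fell. In M2 against M0 no gene of the 5 lists other than the left-out carriers passed, and in KO against WT none of any list did. Arg1 was 10.85 higher in M2 than in M0 without a call (adjusted p = 0.0612), and is given after its values were seen.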

How the data were processed

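The authors deposited scanner output of 6 one-colour arrays (design 014868) with an intensity for each spot, written by Feature Extraction 10.7.3.1 (Agilent), per the file headers. The authors also deposited a log2 table, used as an alternative; the sources used here do not give its centring. Its column medians were 5.39 to 5.41. Control spots and outlier spots (79 to 164 of 43379) were left out, and spots of a probe were averaged. Processed signals were put on a log2 scale and the 75th percentile of each array was subtracted. The brightest probe stood for a gene. Between 62.9% and 67.7% of probes were well above background. State and genotype entered one additive model, fitted by limma 3.58.1 (R 4.3.3) (2 residual df, prior df 1.88), with Benjamini-Hochberg adjustment over 19044 genes. A bound ("at least N-fold") uses the lowest signal flagged above background on each dim array. Probe coordinates are mm9; 54 of 59 members matched RefSeq by accession. Named members were those past an adjusted p of 0.05 between states, 2-fold apart in both genotypes, or 2-fold apart between genotypes within a state. Members and gene lists were chosen with earlier results of these data known. One tested member is counted but not reported here. The number of arrays limits the precision. The GAS motif was added to the motifs after the others were fixed.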

Additional observations from a re-analysis of the deposited data

Results flagged for a closer look

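Opposite directions in the genotypes, each of at least 1.5-fold, were seen for Slc38a8 and Slc6a16, where 1.41% to 3.92% of all genes had such a pair in a comparison of states. M1 minus M2 was -2.63 in WT and 0.78 in KO for Slc38a8, and -1.53 in WT and 0.74 in KO for Slc6a16. Seen the other way, KO minus WT was 2.30 in M1 and -1.11 in M2 for Slc38a8, and 1.59 in M1 and -0.68 in M2 for Slc6a16. These are 1 array against 1 array, and the difference was not tested. The WT M1 array lies on slide 1 and the other 3 arrays on slide 2, so slide and genotype cannot be told apart here.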

How the results depend on the processing

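Of 60 counts of called members under other settings 42 stayed within 1.5 times the main count. For M1 against M0 (11 members) normexp correction called 4, and leaving out 1 array gave 0 to 14. For M2 against M0 (0 members) array-median scaling called 2, the filter for all 6 arrays 1 and the intensity trend 6, and leaving out 1 array gave 0 throughout. For M1 against M2 (15 members) normexp called 5 and the slide block 8, and leaving out 1 array gave 0 to 16. KO against WT called 0 members under every setting tried. At least 2-fold apart within M0 (5 members) were 19 with normexp, 3 with the mean of all probes and 12 with no filter. Within M1 (7) they were 0 with normexp, 3 with quantile normalization, 3 with the authors' table, 4 with the mean of all probes, 14 with no filter and 4 with the filter for all 6 arrays. Within M2 (3) they were 1 with normexp, 5 with no filter and 1 with the filter for all 6 arrays. Among the results of the fits followed through the settings, the direction turned with normexp for Slc36a3 (-0.33) and Slc7a5 (-0.15) in M1 against M0, Slc6a3 (-0.69) in M2 against M0 and Slc6a13 (0.16) in KO against WT. Normexp moved the median of all genes in M1 against M0 to -0.35. The cause of these changes was not tested. Leaving out 1 array also lowers the residual degrees of freedom. Without WT M0 and KO M1 together, the arrays with liver markers, no residual degrees of freedom were left and the fit gave values only, 6.75 for Slc6a19, 1.70 for Slc3a2, 2.19 for Slc7a8 and -2.31 for Slc1a5 in M1 against M0. No paired analysis was possible because each group holds 1 array, so that no replicate numbers pair samples; the genotype term and the slide block set arrays against each other within a genotype or slide. With the slide as a block KO against WT is the M2 pair alone, which is -0.50 for Slc6a11, -0.53 for Slc7a15, -0.21 for Slc7a9, -1.11 for Slc38a8 and -1.80 for Slc36a2, against fitted means above 0. Dim probes, at 8 to 40 units, limit what these arrays show.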
